A study of Mus musculus with 8 samples.

Results

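The potassium and pacemaker channel genes are the genes that encode the pore and accessory subunits of potassium channels (names starting Kcn), the hyperpolarization-activated pacemaker channels (Hcn) and the sulfonylurea receptors Abcc8 and Abcc9, which assemble with ATP-sensitive potassium channels. They were taken from the array by name: Kcn or Hcn followed by a digit, or by a letter and a digit, plus both receptors. Kcn names with more letters before the digit, such as Kcnma1 and Kcnip2, fall outside this rule and were listed with the partner genes below. Of the 30199 gene names on the array 88 met this rule, through 131 probes. A gene counted as measured where its brightest probe was well above background in at least 4 of the 8 samples, and 45 of the 88 were measured, 38 of them in all 8 samples. Of the 131 probes 118 carried an accession found in the RefSeq gene table (assembly GRCm38.p6), and the symbol was the same for all 118.

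The samples were left ventricles of male C57Bl/6j mice, an inbred strain, that ate chow with 0.4% sodium (normal salt, 4 mice) or 0.05% sodium (low salt, 4 mice) for 8 weeks and were 16 weeks old at collection. The labels name no engineered allele, and no drug other than the pentobarbital given as anaesthetic before collection. Septum, free wall and apex were homogenised together, so each value averages over all cell types of the ventricle. RNA was read on 2-colour Agilent arrays, 4 in all, each with a pair of mice of the same diet (mice 1 and 2, or mice 3 and 4), the odd-numbered mouse in Cy3 and the even-numbered mouse in Cy5.

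Potassium channels let potassium leave the heart muscle cell. Inward rectifier channels hold the resting potential, voltage-gated channels of the Shal, Shaker, KCNQ and ether-a-go-go classes end the action potential, two-pore domain channels carry a steady background current, and ATP-sensitive and G protein-gated channels open with metabolic state or with vagal signals. Pacemaker channels carry an inward current on hyperpolarization and are best known from the sinus node. In the mouse ventricle, the fast transient outward current through Shal channels is a main repolarizing current.

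No channel gene passed the main test of low against normal salt. With the mouse number as a block, a pairing that the labels do not state, 1 or 2 passed. The main test was a linear model in limma with Benjamini-Hochberg adjustment over all 18264 measured genes, read at an adjusted p of 0.05. It called 0 of the 45 channel genes in either direction, against 0.750% of all genes higher on low salt (137 genes) and 0.0383% lower (7 genes), 0.788% together. The smallest adjusted p among the channel genes was 0.108. Same-numbered mice deviated together, though the labels state no pairing across diets and these mice share a dye. With the mouse number as a block in place of dye and array limma called 2 channel genes, Kcnk4 and Hcn2, against 3.85% of all genes (704). That fit treats the 2 mice of an array as independent. With the mouse number as a block and the array kept as a random block, a fit chosen after seeing the data, limma called 1, Kcnk4, against 1.28% (234). With each array averaged limma called 0 channel genes and 0 of all genes. At an unadjusted p under 0.05 the main fit held 6 channel genes, or 13.3% of the 45, against 11.0% of all genes (6.78% higher and 4.26% lower). All 6 had higher means on low salt (Kcnk4, Kcna4, Kcna7, Kcnh4, Kcnd1 and Hcn2). With the local trend of the array surface subtracted, as described with the arrays, 7 channel genes or 15.6% had an unadjusted p under 0.05, against 14.9% of all genes, and 0 passed the adjusted threshold, against 0.263%. The direction was split, with 24 values above 0 and 21 below, and 53.3% above 0 compares with 52.5% over all genes. The median difference was 0.02 on the log2 scale (low minus normal), against 0.01 over all genes, and the median size of a difference was 0.12, against 0.13. The share above 0 and both medians lay near those of all genes; at an unadjusted p under 0.05 the channel genes held 13.3% higher and 0% lower, against 6.78% and 4.26%, a split that was not tested.

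The precision bounds what could have been seen. The standard error of a channel gene's difference ran from 0.094 to 0.51, with a median of 0.14. The 95% interval of the difference lay inside a 1.5-fold change either way for 35 of the 45 genes and inside a 2-fold change for 41. All 4 low salt mice lay above all 4 normal salt mice for 5 channel genes (Kcnk4, Kcna7, Kcnh4, Kcnd1 and Kcnj4), 11.1% of the 45 against 7.99% of all genes. By the brightest probe of each gene, no channel gene had all 4 low salt mice below all 4 normal salt mice, against 4.94% of all genes. A second probe of Kcna6, given below, did. The labels give the mice separate names and do not describe cages or litters. Each array held mice of a single diet, so a p-value measures the spread between these mice and between their arrays together.

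**Figure D1:**
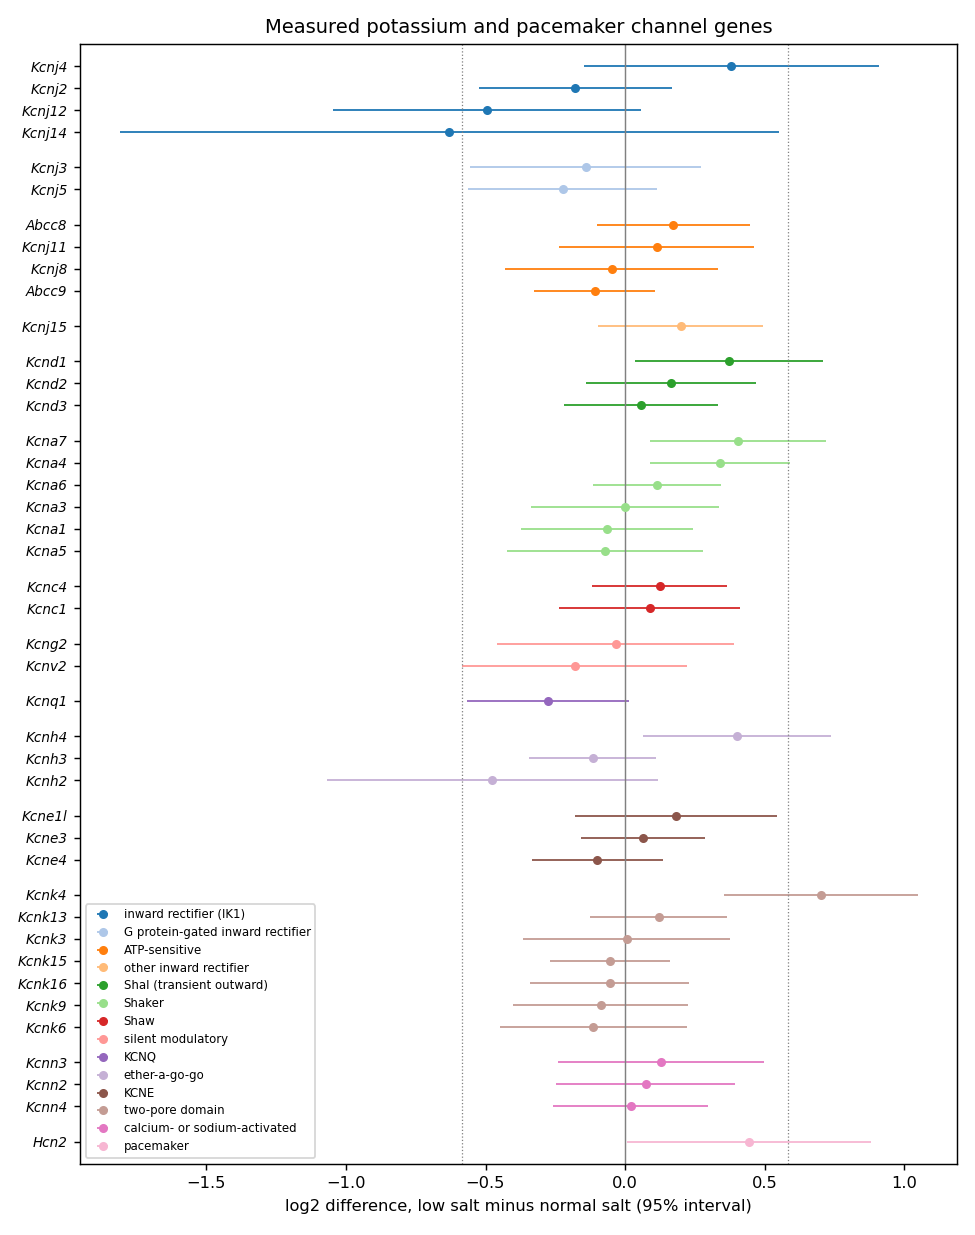
Log2 difference in intensity, low salt minus normal salt, with its 95% interval (limma, 4 mice against 4) for 42 of the 45 measured channel genes, coloured and grouped by channel class; dotted lines mark a 1.5-fold change. The intervals of 36 of these genes include 0, and the 6 that do not lie above it, led by Kcnk4.

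Cardiac muscle markers were well above background in all 8 samples (7 of 7 genes, among them Myh6 and Tnnt2), as the tissue label states. Median spot intensity was 116 to 147 over the samples, and correlations across genes were 0.994 to 0.996 within an array, 0.983 to 0.991 between arrays of a diet and 0.980 to 0.990 between diets; genes are not independent replicates. The low salt arrays stood further apart than the normal salt arrays. Over the channel genes the median size of the gap between mice 1 and 2 and mice 3 and 4 was 0.18 on low salt and 0.10 on normal salt, and over all genes 0.15 and 0.12. Parts of the arrays were uneven: the local difference, low minus normal, of the spots around a probe exceeded 0.2 in size for 10.4% of all genes and for 4 channel genes (Kcnk4, Kcna4, Kcnj12 and Kcne4). For Kcne4 the difference turned from -0.10 to 0.21 with that local trend subtracted, and the values of the other 3 are given both ways below. Atrial muscle markers varied from mouse to mouse, as described with the G protein-gated channels. In bulk tissue, fewer cells of a type and less RNA per cell cannot be told apart.

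The sequence that follows is the second probe of Kcna7, shown because its value was unlike that of the brighter probe of the gene. It is an array design sequence, written 5′ to 3′ in the sense of the transcript. The capitals mark the codons for proline, valine and proline, the bend in the pore-lining helix that forms the gate of Shaker channels. The design names no exon, and the coding place is read from these codons, whose frame holds no stop codon within the probe.

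Kcna7 (chr7:52664902-52664961, mm9, plus strand): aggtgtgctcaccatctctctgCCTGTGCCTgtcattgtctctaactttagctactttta

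Kcnk4 encodes TRAAK, a two-pore domain background channel opened by membrane stretch and by fatty acids, and had the largest difference with the smallest p of the family. Its brighter probe, at chr19:7000280-7000339 (mm9), gave log2 intensities of 8.55, 8.47, 8.02 and 8.06 in normal salt mice 1 to 4 and 8.999, 9.09, 8.92 and 8.89 in low salt mice 1 to 4. All 4 low salt mice lay above all 4 normal salt mice, and the normal salt arrays stood apart. The mean was 8.27 ± 0.27 (SD, n = 4) on normal and 8.97 ± 0.09 (SD, n = 4) on low salt, a difference of 0.70 ± 0.15 (SE; limma adjusted p = 0.108) or 1.62-fold. It was the single channel gene 1.5-fold higher in both dyes, against 1.97% of all genes, and 1.34% of all genes were 1.5-fold lower. With the mouse number as a block the limma adjusted p of Kcnk4 was 0.0228, and with the array kept as a random block as well it was 0.0470. With normal salt mice 1 and 2 left out the difference was 0.93 (limma adjusted p = 0.0269, with 1.47% of all genes called), and with normal salt mice 3 and 4 left out it was 0.47 (limma adjusted p = 0.215). Each of these fits leaves 1 normal salt array, where array and diet cannot be told apart.

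The spots around this Kcnk4 probe differed by 0.50 in the same direction, and with the local trend subtracted the Kcnk4 difference was 0.20 (limma adjusted p = 0.391). Another Kcnk4 probe, 6914 bases away by its start, was well above background in 3 samples, too few for the filter, and its value of -0.06 sits near background and measures little. The part of the uneven surface in the Kcnk4 difference was not tested beyond this subtraction.

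Kcnk3, which encodes the acid-sensitive background channel TASK-1, was nearly level between the diets. Its log2 intensities were 13.01, 13.05, 13.30 and 13.31 on normal salt and 12.95, 13.38, 13.20 and 13.16 on low salt, a difference of 0.01 ± 0.16 (SE), with a 95% interval of -0.37 to 0.38. The groups overlapped, and the sign of the Kcnk3 difference turned under several settings. The other measured two-pore domain genes, Kcnk6, Kcnk9, Kcnk13, Kcnk15 and Kcnk16, lay between -0.11 and 0.12. Over the 7 measured of 14 two-pore domain genes, 3 values were above 0 and 4 below, with a median of -0.05. The stretch-activated TREK-1 gene Kcnk2 was well above background in 1 sample and has no value here.

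Shal channel genes encode the pore of the fast transient outward current. Kcnd1, at chrX:7413570-7413629, gave 9.77, 9.79, 9.79 and 9.83 on normal salt and 10.43, 10.39, 9.94 and 9.92 on low salt. The groups did not overlap, and low salt mice 1 and 2 stood well above mice 3 and 4. Between the diets Kcnd1 differed by 0.37 ± 0.15 (SE; limma adjusted p = 0.415). A dimmer Kcnd1 probe, well above background in all 8 samples, differed by -0.06. With low salt mice 3 and 4 left out (the mice of 1 array), the Kcnd1 difference was 0.61 (limma adjusted p = 0.0218), in a fit that leaves 1 low salt array, where array and diet cannot be told apart, and in which 2.43% of all genes were called higher and 3.50% lower.

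Kcnd2, the main Shal pore gene of mouse ventricle, gave 9.996, 10.23, 10.33 and 10.51 on normal salt and 10.46, 10.55, 10.36 and 10.36 on low salt. The groups overlapped, with normal salt mouse 1 lowest, and the difference was 0.16 ± 0.13 (SE; 95% interval -0.14 to 0.47). For Kcnd3 the values were 9.86, 9.94, 9.96 and 9.82 on normal salt and 10.04, 10.12, 9.83 and 9.81 on low salt. The Kcnd3 difference was 0.06 ± 0.12 (SE), and the low salt arrays lay on opposite sides of the normal salt mean. All 3 Shal values were above 0, and none passed the threshold.

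Among the Shaker genes, Kcna7, which encodes a channel of heart and skeletal muscle, had groups that did not overlap. At chr7:52666474-52666533 its values were 11.28, 11.20, 11.22 and 11.10 on normal salt and 11.75, 11.77, 11.59 and 11.30 on low salt. Low salt mouse 4 lay close to normal salt mouse 1, and the other low salt mice stood clear of the normal salt group. Kcna7 differed by 0.41 ± 0.14 (SE; limma adjusted p = 0.333), and by 0.37 with the local trend subtracted. The Kcna7 gate probe printed above, 1572 bases away by its start and well above background in all 8 samples, differed by -0.02. With low salt mice 3 and 4 left out, the difference of the brighter Kcna7 probe was 0.56 (limma adjusted p = 0.0317). As for Kcnd1, that fit leaves 1 low salt array, where array and diet cannot be told apart.

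Kcna4, which encodes the slow component of the transient outward current, varied with the dye as much as with the diet. It gave 10.91, 11.59, 11.01 and 11.45 on normal salt and 11.38, 11.94, 11.23 and 11.76 on low salt. The even-numbered Cy5 mice were the higher ones on every array, and within each dye both low salt mice exceeded both normal salt mice. Kcna4 differed by 0.34 ± 0.11 (SE; limma adjusted p = 0.303). The local difference around the Kcna4 probe was 0.22, and the difference without the trend was 0.12.

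Kcna5, which encodes the pore of an ultrarapid delayed rectifier, gave 8.54, 8.77, 8.44 and 8.48 on normal salt and 8.49, 8.63, 8.16 and 8.66 on low salt. The groups overlapped throughout, with a difference of -0.07 ± 0.15 (SE), and a second Kcna5 probe differed by -0.46 ± 0.25 (SE). Kcna6 is named here after its values were seen, because its probes disagreed: the brighter differed by 0.11 ± 0.10 (SE) and another, well above background in all 8 samples, by -0.62 ± 0.13 (SE; adjusted p = 0.0914 in the limma fit over probes). The second Kcna6 probe gave 8.07, 8.07, 8.16 and 7.83 on normal salt and 7.49, 7.32, 7.38 and 7.45 on low salt, with all low salt mice below all normal salt mice. The array design gives no position for the brighter Kcna6 probe, which was not among the probes matched to RefSeq. The second Kcna6 probe was matched there under the symbol Kcna6. Kcna1 and Kcna3 were dim, at -0.06 and 0.00. Over the 6 measured of 8 Shaker genes, each by its brightest probe, the median difference was 0.06, with 3 values on each side of 0.

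The Shaw genes encode fast delayed rectifier pores, and Kcnc1 and Kcnc4 differed by 0.09 and 0.12. Of the 10 genes for silent subunits, which form no channel alone and modify other pores, Kcng2 and Kcnv2 were measured, at -0.03 and -0.18.

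**Figure D2:**
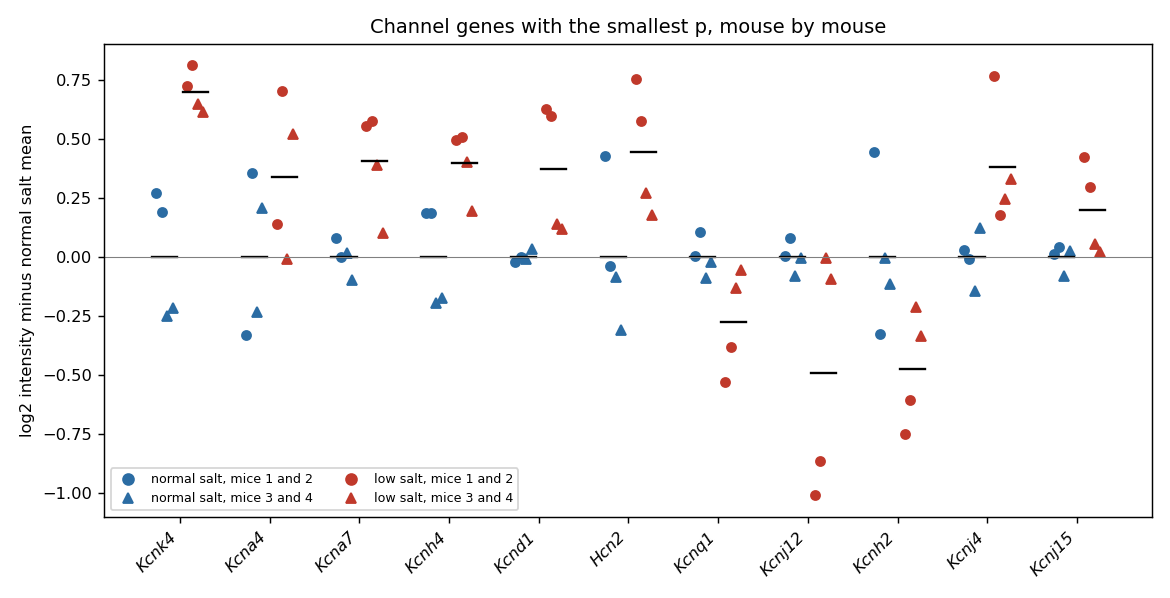
Log2 intensity of each mouse minus the normal salt mean for 11 of the 12 channel genes with the smallest p, in order of p from left to right; blue, normal salt; red, low salt; circles, mice 1 and 2; triangles, mice 3 and 4; bars, group means (n = 4). The low salt circles stand further from 0 than the low salt triangles for most genes, with Kcnj12 at -0.94 for the low salt circles and -0.05 for the triangles.

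The strong inward rectifier genes build the IK1 current that sets the resting potential, and their values went in different directions. Kcnj2, which encodes Kir2.1, gave 7.58, 7.32, 7.45 and 7.62 on normal salt and 7.22, 7.40, 7.38 and 7.25 on low salt. The groups overlapped, and the difference was -0.18 ± 0.15 (SE; 95% interval -0.52 to 0.17).

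Kcnj12, which encodes Kir2.2, gave 9.45, 9.52, 9.36 and 9.44 on normal salt and 8.43, 8.58, 9.44 and 9.35 on low salt. Low salt mice 1 and 2 lay far below every other mouse, and low salt mice 3 and 4 lay within or just below the range of normal salt. The difference over all mice was -0.49 ± 0.24 (SE; limma adjusted p = 0.491). Low salt mice 1 and 2 differed from normal salt by -0.94 (limma adjusted p = 0.0131 with the other low salt array left out) and low salt mice 3 and 4 by -0.05. With a single low salt array in that fit, array and diet cannot be told apart. Around the Kcnj12 probe the local difference was -0.28, and -0.21 remained with the trend subtracted.

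Kcnj4, which encodes Kir2.3, gave 7.33, 7.30, 7.16 and 7.43 on normal salt and 8.07, 7.48, 7.55 and 7.63 on low salt. The groups did not overlap, though low salt mouse 2 lay just above normal salt mouse 4 and low salt mouse 1 stood alone at the top. Kcnj4 differed by 0.38 ± 0.23 (SE; limma adjusted p = 0.559), by 0.22 without low salt mouse 1 and by 0.52 without low salt mouse 2. Kcnj14, named after its values were seen for the widest interval of the family, was well above background in 3 normal salt mice and 1 low salt mouse. It differed by -0.63 ± 0.51 (SE), and its normal salt mouse 1 stood at 8.35, against 6.52 to 7.02 in the other normal salt mice; without that mouse the difference was -0.23. Of the transport-type inward rectifiers, 1 of 5 was measured, Kcnj15, which gave 7.59, 7.62, 7.496 and 7.60 on normal salt and 8.00, 7.87, 7.63 and 7.60 on low salt. The groups overlapped, and the Kcnj15 difference of 0.20 ± 0.13 (SE) came mostly from low salt mice 1 and 2.

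**Figure D3:**
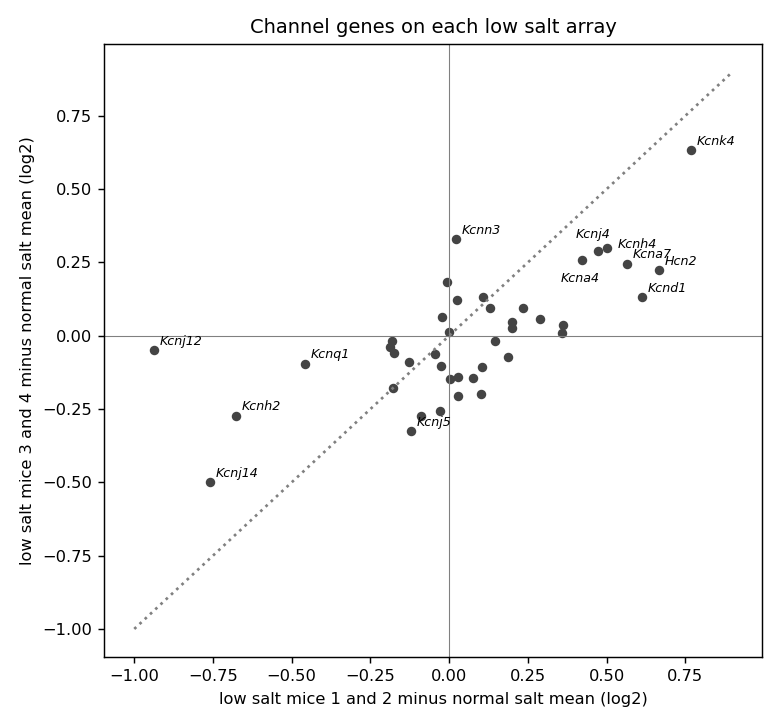
Each point is 1 of 42 channel genes; x, the mean of low salt mice 1 and 2 minus the normal salt mean; y, the mean of low salt mice 3 and 4 minus the same normal salt mean (log2); the dotted line marks equal values. Both axes share the normal salt mice, so the points are a description. Kcnk4 lies near the line, and Kcnj12, Kcnd1 and Hcn2 lie nearer the x axis.

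G protein-gated channels open when acetylcholine acts on the heart and are known for their abundance in atrial muscle. Kcnj5 gave 11.501, 11.87, 11.76 and 11.82 on normal salt and 11.42, 11.81, 11.39 and 11.43 on low salt. Low salt mouse 2 stood with the upper normal salt mice, and normal salt mouse 1 stood with the lower low salt mice. The Kcnj5 difference was -0.22 ± 0.15 (SE; 95% interval -0.56 to 0.11). Kcnj3, its usual partner subunit, gave 8.19, 8.19, 8.65 and 8.69 on normal salt and 8.28, 8.52, 8.25 and 8.09 on low salt. By this brighter probe normal salt mice 3 and 4 and low salt mouse 2 were the 3 highest, and the difference was -0.14 ± 0.18 (SE). A second Kcnj3 probe gave 7.63, 7.85, 7.96 and 7.92 on normal salt and 7.15, 7.47, 7.75 and 7.64 on low salt. There low salt mouse 2 was among the lower mice, and the difference was -0.34 ± 0.18 (SE).

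The mean level of atrial muscle markers ran with these values in part, and not in every mouse or for every marker. The mean log2 intensity of the 6 measured of 7 atrial markers (Myl4, Myl7, Sln, Nppa, Dkk3 and Nr2f1; Bmp10 was not well above background) was 10.49, 11.72, 12.73 and 12.47 in normal salt mice 1 to 4 and 10.23, 11.69, 10.76 and 10.93 in low salt mice 1 to 4. The 4 mice with the highest atrial level, normal salt mice 2, 3 and 4 and low salt mouse 2, were the 4 with the highest Kcnj5. Normal salt mice 3 and 4 and low salt mouse 2 were also the 3 highest for Kcnk3. Normal salt mouse 2, with an atrial level of 11.72, went the other way, among the lower mice for the brighter Kcnj3 probe (8.19) and for Kcnk3 (13.05). By the second Kcnj3 probe normal salt mouse 2 stood among the higher mice (7.85) and low salt mouse 2 among the lower (7.47). Of the 6 markers, Nppa stood at 16.09 in low salt mouse 1, among its highest values, and Nr2f1 at 8.80 in low salt mouse 2, among its lowest, so these did not follow Kcnj5. The part of atrial tissue in these channel values was not tested.

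**Figure D4:**
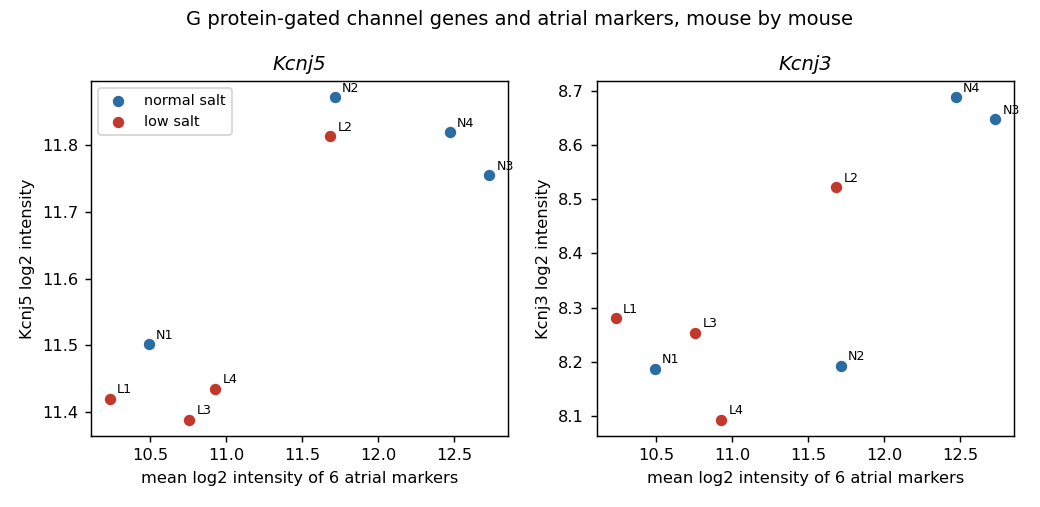
Log2 intensity of Kcnj5 (left) and Kcnj3 (right) against the mean log2 intensity of the 6 measured atrial markers, 1 point per mouse; blue, normal salt (N1 to N4); red, low salt (L1 to L4). Both genes are shown by the probe used in the main test. Low salt mouse 2 lies apart from the other low salt mice on both axes.

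ATP-sensitive channels couple the membrane potential to the energy state of the cell, and all 4 genes were measured, with 2 values on each side of 0. Abcc9, which encodes the receptor subunit SUR2 of ventricular and vascular channels, gave 13.01, 13.18, 13.11 and 13.12 on normal salt and 12.97, 12.99, 12.98 and 13.06 on low salt. The groups overlapped at normal salt mouse 1, and the difference was -0.11 ± 0.09 (SE; 95% interval -0.33 to 0.11). Abcc8, which encodes SUR1, gave 12.24, 12.50, 12.24 and 12.39 on normal salt and 12.59, 12.67, 12.40 and 12.40 on low salt. Its difference was 0.17 ± 0.12 (SE), and a second Abcc8 probe that starts 13 bases away gave 0.40 ± 0.17 (SE).

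By the probes used in the main test, the pore genes of these channels differed by less than their standard errors. Kcnj11, which encodes Kir6.2, gave 11.12, 11.14, 11.32 and 11.15 on normal salt and 11.16, 11.46, 11.35 and 11.20 on low salt. The difference of 0.11 ± 0.15 (SE) became -0.08 with the local trend subtracted, and a second Kcnj11 probe differed by 0.33 ± 0.16 (SE). Kcnj8, which encodes Kir6.1 of vascular muscle, gave 9.55, 9.42, 9.55 and 9.33 on normal salt and 9.74, 9.38, 9.19 and 9.34 on low salt, a difference of -0.05 ± 0.17 (SE). Low salt mice 1 and 3 were the highest and the lowest of all 8 for Kcnj8. Smooth muscle and pericyte markers had a median difference of -0.16, with 6 of 8 below 0 and none past the threshold, and their level overlapped between diets.

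KCNQ and ether-a-go-go genes encode the slow and rapid delayed rectifiers. Kcnq1, the pore of the slow current, gave 11.87, 11.97, 11.77 and 11.84 on normal salt and 11.33, 11.48, 11.73 and 11.81 on low salt. Low salt mice 1 and 2 lay below every other mouse and mouse 4 within the normal salt range, with a difference of -0.28 ± 0.13 (SE; limma adjusted p = 0.473). A second Kcnq1 probe that starts 9 bases away did not show this order of mice. It gave 11.57, 11.69, 11.62 and 11.79 on normal salt and 11.55, 11.73, 11.43 and 11.59 on low salt. Low salt mouse 3 was the lowest there and low salt mouse 2 among the highest, with a difference of -0.09 ± 0.09 (SE).

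Kcnh2, which encodes the ERG pore of the rapid current, gave 9.81, 9.04, 9.36 and 9.25 on normal salt and 8.62, 8.76, 9.16 and 9.03 on low salt. Normal salt mouse 1 was the highest, and the groups overlapped at normal salt mouse 2. The Kcnh2 difference was -0.48 ± 0.26 (SE; limma adjusted p = 0.527), -0.31 without normal salt mouse 1 and -0.62 without normal salt mouse 2. Kcnh4, an ELK channel gene known from brain, gave 9.85, 9.85, 9.47 and 9.49 on normal salt and 10.16, 10.17, 10.07 and 9.86 on low salt. The groups did not overlap, but low salt mouse 4 lay just above normal salt mice 1 and 2. The Kcnh4 difference was 0.40 ± 0.15 (SE; limma adjusted p = 0.379) and 0.30 with the local trend subtracted. Another Kcnh4 probe, at a mean of 6.31 over the samples, was well above background in no sample, so the Kcnh4 values rest on the brighter probe alone. Kcnh3 differed by -0.12, and by 0.03 with the local trend subtracted. Of the 5 KCNE genes for accessory subunits 3 were measured, Kcne1l, Kcne3 and Kcne4, between -0.10 and 0.18; Kcne1, the partner of Kcnq1, was not well above background in any sample.

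Small-conductance calcium-activated channels respond to calcium through calmodulin. Kcnn2 gave 9.16, 9.48, 9.31 and 9.34 on normal salt and 9.22, 9.48, 9.49 and 9.40 on low salt, a difference of 0.07 ± 0.14 (SE) with overlapping groups. For Kcnn3 the spot of normal salt mouse 4 carried an outlier flag, and the fit used 7 values, 7.01, 7.49 and 6.62 on normal salt and 6.83, 7.30, 7.10 and 7.64 on low salt. The Kcnn3 difference was 0.13 ± 0.16 (SE). Kcnn4 was dim, at 0.02, and Kcnn1 was not well above background in any sample.

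Hcn2 was the measured pacemaker gene of 4. Hcn3 and Hcn4, the main sinus node isoform, were well above background in 1 sample each. Hcn2, at chr10:79198412-79198471, gave 15.38, 14.91, 14.86 and 14.64 on normal salt and 15.70, 15.53, 15.22 and 15.13 on low salt. Normal salt mouse 1 lay above low salt mice 3 and 4, and within each dye the low salt mean was the higher. The Hcn2 difference was 0.44 ± 0.19 (SE; limma adjusted p = 0.449), or 1.36-fold, and 0.32 with the local trend subtracted. A second Hcn2 probe, at chr10:79198592-79198651, gave 0.36 ± 0.11 (SE; adjusted p = 0.239 in the limma fit over probes) and 0.34 without the trend. That probe was dimmer, with a mean of 11.17 over the samples against 15.17 for the brighter probe. Its values were 10.94 to 11.06 on normal salt and 11.22 to 11.54 on low salt, without overlap. With the mouse number as a block the limma adjusted p of the brighter Hcn2 probe was 0.0409, and with the array as a random block as well it was 0.123. All 4 measured of 7 conduction system markers (Tbx3, Cacna1g, Cntn2 and Cpne5) had lower means on low salt, with a median of -0.47 and none past the threshold, and their mean level was 8.55 to 8.87 on normal and 8.24 to 8.53 on low salt. The part of that tissue in the Hcn2 value was not tested.

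**Figure D5:**
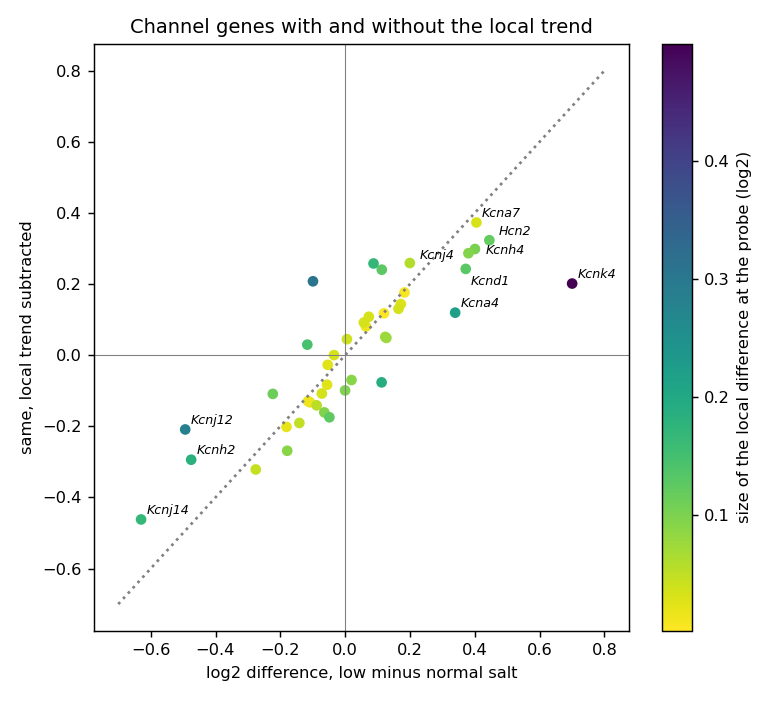
Log2 difference of each of 42 channel genes, low minus normal salt (x), against the same difference with the local trend of the array surface subtracted (y); colour, the size of the local difference at the probe; the dotted line marks equal values. Kcnk4 moves from 0.70 to 0.20, Kcna4 from 0.34 to 0.12, Kcna7 from 0.41 to 0.37 and Hcn2 from 0.44 to 0.32.

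Of the 13 channel genes with a second probe that passed the filter, 7 had the same sign in both probes. The median size of the gap between the probes' differences was 0.22, and the widest was 0.73, at Kcna6. Kcna7, Kcnd1 and Kcna6 were among those with opposite signs, and Hcn2, Abcc8 and Kcnj11 had values above 0 in both probes.

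Genes whose products assemble with, anchor or regulate these channels were read from a list of 32, all on the array, of which 21 were measured. The list includes Kcn genes that the name rule leaves out. The limma test called 0 of the 21, against 0.788% of all genes. At an unadjusted p under 0.05 it held 2 (Akap9 had the smallest), against 11.0% of all genes. Of the partner values 13 were above 0 and 8 below, against 52.5% above 0 over all genes. Their median was 0.04, against 0.01 over all genes. Kcnip2, which encodes the KChIP2 subunit that Shal channels need for the fast transient outward current, gave 8.80, 8.95, 8.93 and 9.15 on normal salt and 8.59, 9.30, 8.92 and 8.77 on low salt. Low salt mice 1 and 2 were the lowest and the highest of all 8, and the Kcnip2 difference was -0.06 ± 0.22 (SE).

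Akap9, which encodes the anchoring protein that ties protein kinase A to Kcnq1, gave 9.91, 10.01, 9.74 and 9.74 on normal salt and 10.33, 10.30, 10.14 and 10.06 on low salt. The groups did not overlap, and the difference was 0.36 ± 0.12 (SE; limma adjusted p = 0.329, 0.0437 under the mouse number block and 0.126 with the array as a random block as well). Dpp6, an accessory subunit of Shal channels, differed by 0.28 ± 0.12 (SE) and, with low salt mice 3 and 4 left out, by 0.46 (limma adjusted p = 0.0470). That fit, also given for Ank2 below, leaves a single low salt array, where array and diet cannot be told apart. Irx4, the ventricular homeobox factor, differed by 0.31 ± 0.15 (SE). Ank2, which encodes the membrane anchor ankyrin-B and is named after its values were seen, gave 11.40, 11.80, 11.60 and 11.73 on normal salt and 10.77, 10.91, 11.55 and 11.62 on low salt. Low salt mice 1 and 2 lay below every other mouse, as for Kcnj12, and the Ank2 difference was -0.42 ± 0.22 (SE; limma adjusted p = 0.510), or -0.79 with low salt mice 3 and 4 left out (limma adjusted p = 0.0244).

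The 43 unmeasured channel genes were well above background in no sample (21 genes) or in 1 to 3 samples (22 genes). They include Kcnq1ot1, the non-coding transcript of the Kcnq1 locus, which the name rule takes in and which was well above background in no sample. Of the other classes, Kcnj6 and Kcnj9 of the G protein-gated group, 7 of 14 two-pore domain genes and 8 of 10 silent subunit genes gave no value. No fold is given for these genes. The 7 genes measured in 4 to 7 samples (Kcnj14, Kcnc4, Kcne4, Kcnn3, Kcna1, Kcnn4 and Kcna3) sit near background, where a difference is read with the least precision.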

How the data were processed

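Per the file headers, the deposited scanner tables give spot intensity and local background intensity for each channel, read with Agilent Feature Extraction 11.5.1.1; the scanner's processed intensity in the same deposited tables, background-subtracted and dye-normalised per the file headers, served as an alternative. The deposited value table was not used because its rows could not be tied to probes. Mean signals were corrected with normexp (offset 50; a flagged local background replaced by the channel median), normalised by loess (within arrays) and Aquantile (between arrays) and expressed as log2 in limma 3.58.1 under R 4.3.3. Flagged spots were left out, spots of a probe averaged, and the brightest probe of a gene used where it was well above background in at least 4 samples. Coordinates are those of the array design (mm9), which gives no exon or UTR for a probe. Median background was 15.5 to 33.5, the share of non-control spots well above background was 53.0% to 66.3%, and no channel spot was saturated. The number of arrays limits the precision.

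The model held diet and dye, with the array as a random block (correlation 0.564), fitted over all genes; tests were 2-sided. Diet differs between arrays, and all 4 arrays lay on 1 slide with the arrays of a diet side by side, so place on the slide and diet cannot be told apart. The local trend was the median over spots within 5 rows and columns. On simulated data for this comparison, over all 18264 genes, the fit called 86 of 100 genes changed by 1 log2 unit and 98 of 100 changed by 2. The simulated errors followed the model, without an uneven surface. No change below 1 log2 unit was simulated, so channel gene differences, at most 0.70 in size, were not covered. Same-numbered mice of both diets deviated together (correlations across genes 0.30, 0.14, 0.16 and 0.19), which by the rule used pairs them; they also share a dye, and within a dye the correlations were 0.21 and 0.11. Named genes were the 12 measured members with the smallest p, members with a known cardiac current, and, of the partner list, Kcnip2 and the 4 with the smallest p; others are marked, and a few genes that enter the counts are not reported here by name. The members and lists were chosen with earlier results of these data known. Alternatives changed normalisation, background correction, filter, probe rule, spatial trend, blocks, dyes and samples. Of 8 marker lists (cardiac, atrial and smooth muscle, conduction system, endothelium, nerve, fibroblasts and macrophages) no gene passed the threshold.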

Additional observations from a re-analysis of the deposited data

Results flagged for a closer look

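In 2 of the 61 groups of 4 mice checked, over the named channel and partner genes and both diets, 1 mouse stood far from the other 3. A gap that large arises in about 1 in 20 groups by chance. Kcnj5 on low salt stood at 11.81 in mouse 2, with the next mouse at 11.43 and the lowest at 11.39, so that the gap took up 0.891 of the group's range. The same mouse had the highest atrial marker level of the low salt group, 11.69, against 10.23 to 10.93 in the others. Kcnj11 on normal salt stood at 11.32 in mouse 3, with the next mouse at 11.15 and the lowest at 11.12, a gap of 0.884 of the range. The cause of either gap was not tested.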

How the results depend on the processing

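Among all genes the number past the threshold, 144 in the main setting, was 0 without normalisation between arrays (782 at an unadjusted limma p under 0.05), 41 with the scanner's processed signal, 48 with the local trend subtracted, 0 with each array averaged (1558 unadjusted), 632 without the array block, 0 in the Cy3 samples alone (1862 unadjusted) and 0 in the Cy5 samples alone (1266 unadjusted). With the mouse number as a replicate block it was 704, with 2 channel genes and 1 partner gene, and with that replicate block and the array as a random block 234, with 1 channel gene; the replicate block changed no other channel or partner call than those of Kcnk4, Hcn2 and Akap9. Without the array block 1 channel gene passed, Kcnk4 (adjusted p = 0.0381). Leaving out 1 mouse gave 53 to 110 genes, 0 channel genes and 0 partner genes. With the array of normal salt mice 1 and 2 left out there were 269 genes, with 1 channel gene. The array of low salt mice 1 and 2 left 76 when dropped, and that of low salt mice 3 and 4 left 1082, with 3 channel genes and 2 partner genes (Dpp6 and Ank2). The count of channel genes 1.5-fold apart in both dyes, 1 in the main setting, was 0 with the local trend subtracted, 0 to 1 without 1 mouse, 2 without normal salt mice 1 and 2, 0 without normal salt mice 3 and 4 and 2 without low salt mice 3 and 4; it has no value where dyes are not kept apart. The median of the channel genes, 0.0196 in the main setting, ran from -0.0003 to 0.075 and so moved by less than its spread between mice, 0.0566, in every setting run. The cause of these shifts was not tested, apart from the fewer samples where mice were left out.

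Small differences turned sign. Kcnk3 was -0.0208 without normalisation between arrays, -0.0822 in Cy3 alone, -0.128 without normal salt mice 1 and 2, -0.0019 without low salt mice 3 and 4, and from -0.0853 to 0.0981 without 1 mouse. Kcnj11 was -0.196 with the processed signal and -0.0765 without the trend. Kcna5 was 0.0225 in Cy5 alone, 0.0271 without normal salt mice 1 and 2, 0.0037 without low salt mice 3 and 4, and from -0.14 to 0.0176 without 1 mouse. Kcnn3 was -0.0236 in Cy5 alone, -0.033 without normal salt mice 3 and 4, -0.0479 without low salt mice 3 and 4, and from -0.033 to 0.16 without 1 mouse. Kcnj3 was 0.0971 and Kcnip2 0.0195 without normal salt mice 3 and 4, and Kcnip2 ran from -0.206 to 0.0673 without 1 mouse. Kcnd3 was -0.0723 without low salt mice 1 and 2, and Kcnj8 was 0.102 without low salt mice 3 and 4 and from -0.133 to 0.0566 without 1 mouse. For the other genes named by the rule, direction held in every setting run. Genes outside the rule were followed in fewer settings, and some small differences turned there too: Kcne4 to 0.21, Kcnh3 to 0.03, Kcng2 to 0.0002 and Kcnn4 to -0.07 with the trend subtracted, Kcnk9 to 0.03, Kcnk16 to 0.03, Kcng2 to 0.08, Kcna3 to 0.10, Kcnc1 to -0.0076 and Kcnn4 to -0.02 without low salt mice 3 and 4, and Kcne3 to -0.02 without low salt mice 1 and 2. Kcna1, Kcna3, Kcng2 and Kcnn4 also turned with 1 mouse left out.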

Other observations

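Markers of the other cell types of the ventricle were read beside the channel genes, and no marker passed the threshold in limma. Cardiac muscle markers had a median log2 difference of -0.16, low minus normal salt, with 5 of 7 below 0, and a mean level of 16.67 to 17.32 on normal and 16.60 to 17.18 on low salt. Atrial markers had a median of -0.90, with 5 of 6 below 0; Nppa, the atrial natriuretic peptide gene, was the one above, at 0.39. Endothelial markers had a median of -0.31, with 6 of 8 below 0 and levels of 11.08 to 11.47 and 10.78 to 11.12. Nerve and Schwann cell markers had a median of -0.37, with 5 of 7 below 0, and their level was 8.63 to 8.66 in the normal salt mice and 8.24 to 8.56 in the low salt mice, with no overlap. Fibroblast markers had a median of -0.13, with 3 of 4 below 0, and macrophage markers one of 0.28, with 3 of 4 above 0; both levels overlapped between the diets. Their part in the channel values was not tested.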
